A study of Mus musculus with 6 samples.

Results

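The genes described here encode the bone morphogenetic protein (BMP) and transforming growth factor β (TGF-β) system: its secreted ligands, extracellular antagonists, receptors, SMAD proteins, intracellular inhibitors and some direct targets. They were chosen by gene symbol from the deposited table, which gave 66 of 17491 listed genes. RNA-seq had been done on mouse osteoblasts derived from wild-type mesenchymal stem cells of tibial and femoral marrow, after 7 days in a medium that drives bone formation (ascorbic acid, β-glycerophosphate and dexamethasone added). All 6 libraries share that medium, 3 labelled control and 3 labelled as treated with verapamil, which blocks calcium entry through L-type channels. The labels give no verapamil dose or length of exposure, and nothing in them ties a replicate to its own animal or culture, so p-values reflect the spread among these 6 samples alone, which may be technical.

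Ligands of this superfamily are made as dimers that bring together type I and type II serine/threonine kinase receptors. TGF-β and activin receptors phosphorylate SMAD2 and SMAD3, BMP receptors phosphorylate SMAD1, SMAD5 and SMAD9, and each of these pairs with SMAD4 to reach the nucleus. In bone, BMP ligands were named for inducing ectopic bone, and TGF-β is stored in the matrix in a latent complex. The pathway induces its own inhibitors, among them SMAD6, SMAD7 and the SKI-like protein SnoN, and BMP signals induce the ID proteins, which block basic helix-loop-helix factors.

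Promoter sequences are shown for the ID genes and the inhibitory SMAD whose entries were found, since these are textbook targets of BMP signalling. Here Id2 was higher and Smad6 lower with verapamil at an adjusted p under 0.05, while Id3 and Id4 did not pass. Of the 66 genes, 45 had an entry in the RefSeq promoter table (GRCm38.p6), and the 250 bases before the start that table uses are printed 5′ to 3′ on the gene's strand. Capitals mark CAGAC, the core of a SMAD-binding element, and GGCGCC, a GC-rich SMAD motif, each searched on both strands. The palindrome GTCTAGAC was searched too, and different motifs of the search can share at most 1 end letter.
Id2 (chr12:25096093-25096342, minus strand): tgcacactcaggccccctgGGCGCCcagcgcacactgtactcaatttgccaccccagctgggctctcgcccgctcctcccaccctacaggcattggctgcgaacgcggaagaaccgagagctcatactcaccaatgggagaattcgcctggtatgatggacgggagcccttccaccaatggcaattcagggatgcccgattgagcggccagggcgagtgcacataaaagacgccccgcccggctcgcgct
Id3 (chr4:136143572-136143821, plus strand): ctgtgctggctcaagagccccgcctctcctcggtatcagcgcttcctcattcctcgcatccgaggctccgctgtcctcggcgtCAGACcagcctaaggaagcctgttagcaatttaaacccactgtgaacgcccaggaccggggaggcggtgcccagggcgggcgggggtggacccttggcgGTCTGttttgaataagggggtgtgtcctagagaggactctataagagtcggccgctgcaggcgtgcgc
Id4 (chr13:48260866-48261115, plus strand): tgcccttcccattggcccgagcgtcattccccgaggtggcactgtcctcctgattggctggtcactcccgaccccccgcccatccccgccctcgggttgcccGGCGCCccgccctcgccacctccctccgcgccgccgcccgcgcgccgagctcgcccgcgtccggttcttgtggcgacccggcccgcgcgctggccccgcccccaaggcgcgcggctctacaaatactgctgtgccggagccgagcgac
Smad6 (chr9:64022060-64022309, minus strand): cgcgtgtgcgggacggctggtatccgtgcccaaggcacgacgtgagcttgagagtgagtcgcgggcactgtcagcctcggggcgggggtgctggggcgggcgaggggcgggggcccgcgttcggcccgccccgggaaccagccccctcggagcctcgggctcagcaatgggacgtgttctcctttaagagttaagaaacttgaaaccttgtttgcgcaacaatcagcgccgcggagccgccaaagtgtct

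Counted back from the start, GGCGCC began at -231 in Id2 and -148 in Id4, and CAGAC or its reverse complement began at -167 and -68 in Id3. Neither motif was among the letters of the Smad6 window, of which the last 26 bases lie inside the gene span that the RefSeq gene table gives, since its start lies further upstream. Over all 56 windows of the 45 genes, 27 (48.2%) held CAGAC and 14 (25.0%) held GGCGCC. Of all 32851 windows of the table, 42.2% held CAGAC and 9.59% held GGCGCC, while GTCTAGAC was in 0 of the 56 windows and in 0.167% of all. The windows of these genes had a median GC content of 65.2%, against 52.4% over all windows. A match is a description of letters and not a binding site.

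Library totals ran from 18.2 M to 21.7 M estimated reads. Among the controls, the summed level of 15 hypoxia response genes was 5003, 7606 and 3127 normalised counts per 1000000 reads (CPM) in replicates 1, 2 and 3, so that the controls were spread widely with replicate 2 highest and replicate 3 lowest. It was 2186 to 2558 CPM with verapamil, with 12 of the 15 genes lower. Genes of this and the following lists were counted at an adjusted p under 0.05 in edgeR. At that threshold, 16.3% of all 13366 tested genes were lower and 15.4% higher. Of 12 osteoblast markers, 10 were lower with verapamil, and their summed level was 43080 to 54780 CPM in control and 18400 to 21160 CPM in verapamil libraries. Macrophage markers were also abundant: 11 of 16 were higher and 1 was lower with verapamil, with sums of 9545 to 11960 CPM and 17040 to 19170 CPM, and no marker of either list was at 0 in any library. Of the macrophage sums, Lyz2 alone held 4358 to 6326 CPM in control and 10331 to 12096 CPM with verapamil. Osteocyte markers (3 of 3 tested lower) and chondrocyte markers (5 of 5 tested lower) fell too, from 125 to 157 CPM and from 283 to 666 CPM in control to 45.2 to 47.8 CPM and 103.5 to 144 CPM. Summed levels were 445 to 625 and 618 to 771 CPM for adipocyte, 57.8 to 60.8 and 49.3 to 50.9 CPM for endothelial, and 275 to 284 and 237.5 to 260.3 CPM for osteoclast markers, in control and verapamil libraries in turn. Of those tested, 2 of 5 adipocyte markers were higher and 1 lower, and 1 of 8 endothelial markers was higher and 3 lower. Of 3 osteoclast markers tested, 1 was lower and 0 higher, and Ctsk alone held 264 to 271 and 224 to 245 CPM of their sums. Neutrophil and lymphocyte markers summed to at most 2.92 and 1.44 CPM in any library. The part of these differences in the results that follow was not tested, and in bulk RNA fewer cells of a type and less RNA per cell cannot be told apart.

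With verapamil, most BMP and TGF-β genes that changed were lower. Of the 66 genes, 60 had counts high enough to be tested, and of these 31 fell, 6 rose and 23 did not pass at an adjusted p under 0.05 in the quasi-likelihood test of edgeR (Benjamini-Hochberg). That is 51.7% lower and 10.0% higher, where 16.3% of all 13366 tested genes were lower, 15.4% were higher and 31.7% were called in either direction. Groups did not overlap in 42 of the 60 genes, 36 with the verapamil values below and 6 above. They did not overlap in 49.6% of all 13366 tested genes, 3264 with the verapamil values below and 3362 above. The median log2 fold change of verapamil over control was -0.27 for the 60 genes and 0.01 for all tested genes. The number that fell was 20 without verapamil replicate 1 and 20 without verapamil replicate 2, and the number that rose was 3 with control replicate 1 left out and 2 with verapamil replicate 2 left out. The genes left untested were Bmp7, Bmp15, Gdf5, Gdf7, Acvr1c and Bmpr1b, none of which reached 0.7 CPM in any library.

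**Figure D1:**
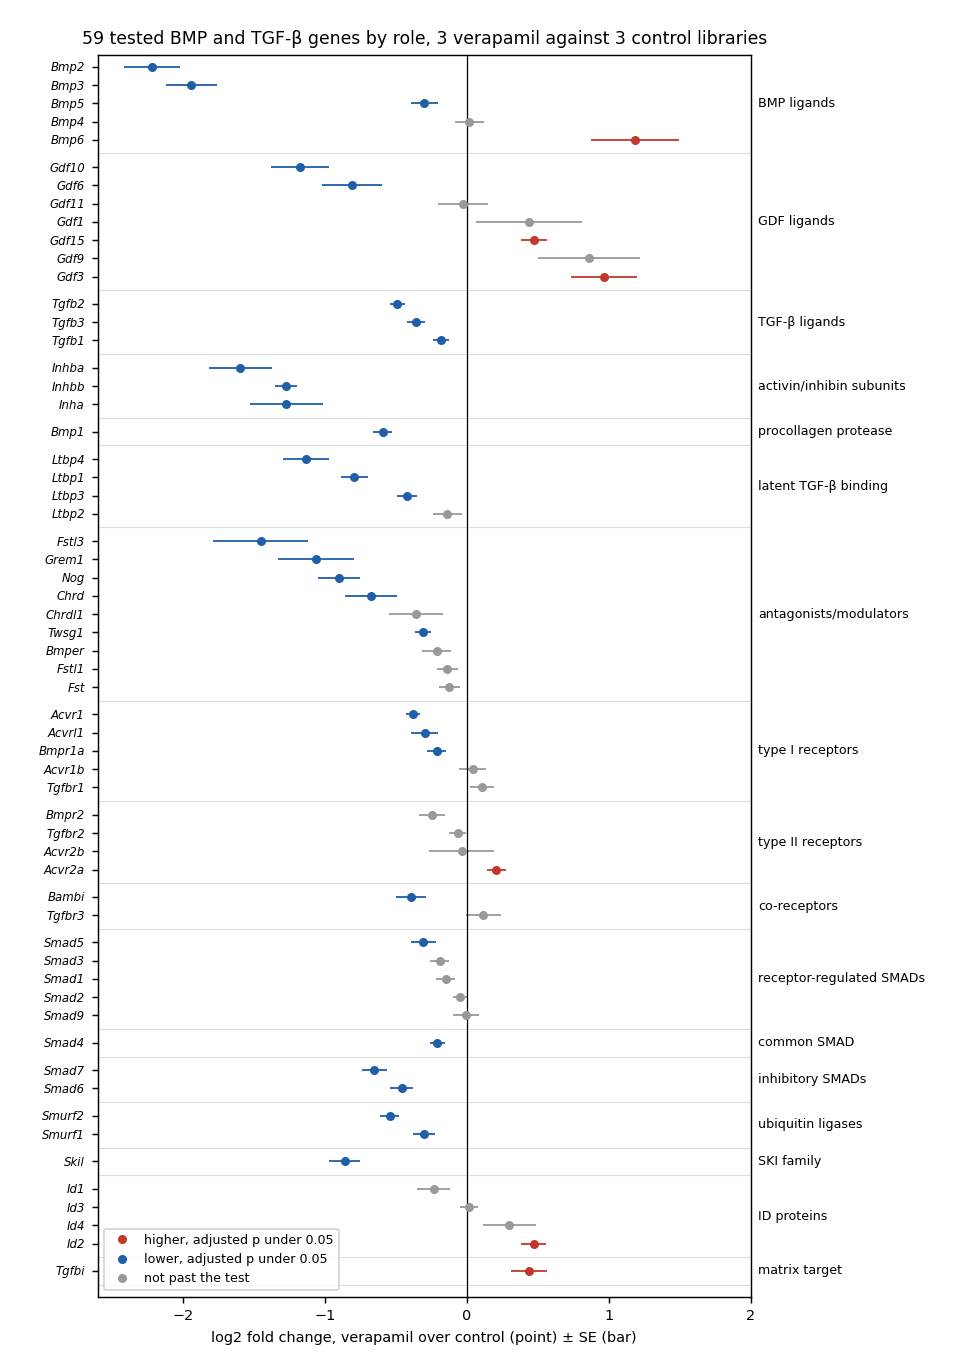
Log2 fold change of verapamil over control (point) with its standard error (bar) for 59 of the 60 tested genes, 3 libraries per group, ordered by role from ligands to targets. The widest spread is among the ligands, from -2.22 for Bmp2 to 1.18 for Bmp6, while receptors lie between -0.39 and 0.21.

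By role, the ligand genes had the largest median change in size, a ranking that may rest on ligands with few reads. The 18 tested ligand genes had a median absolute log2 fold change of 0.84, with 11 lower, 3 higher and 4 not past the test. Among them were Gdf9, Gdf1, Inha, Gdf3, Gdf10 and Bmp6, with means of 0.551, 0.925, 1.57, 2.08, 2.52 and 3.11 CPM over all libraries. A median without these genes was not computed. For the 14 latent binding proteins and extracellular modulators the median was 0.55, with 8 lower, 0 higher and 6 not past. Receptors and co-receptors had a median of 0.21 over 11 genes, with 4 lower and 1 higher. The receptor-regulated and common SMADs had one of 0.17 over 6 genes, with 2 lower and 0 higher. In neither of these sets with a count of 0 was any gene higher at an unadjusted p under 0.05 in edgeR, or past the test upward by DESeq2 or limma-voom. All 5 intracellular inhibitors tested fell, with a median of 0.54. Over all tested genes the median absolute log2 fold change was 0.20, with 16.3% lower and 15.4% higher. Differences between these classes were not tested.

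Among BMP ligands, Bmp2 and Bmp3 both fell, Bmp6 rose from a very low level, and Bmp4 was alike in both groups. Bmp2, a strong inducer of osteoblast differentiation (chromosome 2, 133552159 to 133562896 in GRCm38), had 33.1, 32.3 and 20.9 CPM in control replicates 1, 2 and 3 and 6.43, 5.37 and 6.78 CPM in the verapamil replicates. The lowest control lay above the highest verapamil library by a wide margin, and the fold change was 4.64-fold lower (log2 -2.22 ± 0.20 SE, adjusted p = 0.000440). Bmp3, which encodes a ligand that opposes the osteogenic BMPs and is abundant in bone (chromosome 5, 98854415 to 98884053), was at 33.0, 23.0 and 35.6 CPM in control and 8.18, 8.88 and 6.87 CPM with verapamil. It fell 3.83-fold (log2 -1.94 ± 0.18 SE, adjusted p = 0.000534), again with no overlap between groups. Both calls held without each library in turn.

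Bmp6, an osteogenic ligand that also regulates hepcidin in the liver (chromosome 13, 38345716 to 38500314), stood at 1.31, 1.76 and 2.62 CPM in control and 3.51, 6.0 and 3.46 CPM with verapamil, so that all verapamil libraries were above all controls. It was 2.27-fold higher (log2 1.18 ± 0.31 SE, adjusted p = 0.0221). The call of Bmp6 rested on single libraries: adjusted p was 0.0842 with control replicate 1 left out, 0.0501 with control replicate 2 left out and 0.0788 with verapamil replicate 2 left out, the library with the highest value. Bmp4, another osteogenic BMP, had 37.3, 37.3 and 48.2 CPM in control and 40.7, 42.8 and 40.9 CPM with verapamil. Its groups overlapped, with a log2 difference of 0.02 and an approximate 95% interval (1.96 SE to each side) of -0.18 to 0.22. Bmp5, the most abundant of the 5 by CPM, was at 81.4, 62.7 and 77.9 CPM and at 58.7, 59.0 and 63.0 CPM, a small fall with overlapping groups (log2 -0.30 ± 0.10 SE, adjusted p = 0.0448). It did not pass without control replicate 1 or 3 or any verapamil replicate (adjusted p = 0.0821 to 0.158), nor with libraries scaled by their totals alone (adjusted p = 0.170) or by limma-voom (adjusted p = 0.0545). Of its exonic bases, 46.7% are shared with the antisense gene Gm26903, and the strand setting of the counts is not given in the sources used here.

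Growth differentiation factors (GDFs) went both ways. Gdf10, a relative of Bmp3, was at 3.15, 3.10 and 4.22 CPM in control and 1.49, 1.80 and 1.35 CPM with verapamil (log2 -1.17 ± 0.20 SE, adjusted p = 0.00421). Gdf6, a ligand of joint and skeletal patterning, had 49.6, 78.5 and 43.9 CPM in control, highest in the replicate with the high hypoxia genes, and 34.3, 31.0 and 32.7 CPM with verapamil. The groups of both genes were apart, and for Gdf6 the log2 fold change was -0.81 ± 0.21 SE (adjusted p = 0.0289). Without control replicate 2 the log2 fold change of Gdf6 was -0.52, with a smaller adjusted p of 0.000400, and the call was lost with any verapamil library left out (adjusted p = 0.0698 to 0.0940) or with genes of low count kept (adjusted p = 0.0617).

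Gdf15, a divergent member induced by cell stress, was tight in control at 13.6, 13.8 and 13.1 CPM and higher with verapamil at 19.9, 16.7 and 19.5 CPM (log2 0.47 ± 0.09 SE, adjusted p = 0.00623). Gdf3 rose from 1.5, 1.44 and 1.29 CPM to 2.50, 3.56 and 2.20 CPM (log2 0.97 ± 0.23 SE, adjusted p = 0.0152), but not without verapamil replicate 2 (adjusted p = 0.0629). In neither did the groups overlap. Gdf11, at 37.4 ± 9.63 and 36.8 ± 1.82 CPM (mean ± SD, n = 3 each), had a log2 difference of -0.03 with an interval of -0.37 to 0.32. Gdf1 and Gdf9 were under 1.6 CPM in every library and did not pass (adjusted p = 0.407 and 0.103). All exonic bases of Gdf1 lie within Cers1 on the same strand, so its counts cannot be assigned with certainty.

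All 3 activin and inhibin subunit genes fell. Inhba encodes the βA subunit, whose dimer is activin A (chromosome 13, 16004256 to 16031609). It had 275, 262 and 152 CPM in control replicates 1, 2 and 3 and 77.4, 74.1 and 76.6 CPM with verapamil. Control replicate 3 was the lowest control and still far above every verapamil library, and the fold change was 3.02-fold lower (log2 -1.59 ± 0.22 SE, adjusted p = 0.00327). Inhbb, for the βB subunit (chromosome 1, 119415463 to 119422248), was at 147, 143 and 137 CPM and at 58.3, 53.6 and 64.7 CPM. It fell 2.42-fold with little spread in either group (log2 -1.27 ± 0.08 SE, adjusted p = 7.89e-05). Inha, for the α subunit that turns a dimer into an inhibin, went from 2.11, 2.88 and 1.70 CPM to 0.903, 0.992 and 0.853 CPM (log2 -1.27 ± 0.26 SE, adjusted p = 0.00758). Inhba and Inhbb together came to 422, 405 and 289 CPM in control and 136, 128 and 141 CPM with verapamil.

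The 3 TGF-β isoform genes fell too, by smaller amounts. Tgfb2 was at 139, 129.9 and 136 CPM in control and 95.4, 94.0 and 98.7 CPM with verapamil (log2 -0.49 ± 0.05 SE, adjusted p = 0.000584). Tgfb3 had 157, 170.3 and 179.8 CPM against 131, 131 and 134 CPM (log2 -0.36 ± 0.06 SE, adjusted p = 0.00411). Tgfb1, the main isoform stored in bone matrix, was at 142, 151 and 152 CPM against 129, 127 and 135 CPM (log2 -0.18 ± 0.05 SE, adjusted p = 0.0369). No isoform overlapped between groups. The call of Tgfb1 was lost with control replicate 3 or any verapamil library left out (adjusted p = 0.0563 to 0.138), with library totals alone (adjusted p = 0.230) and when genes of low count were kept (adjusted p = 0.0530).

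Levels of different ligands were compared per kilobase of the longest annotated transcript. In control, Tgfb1 had 57.6 CPM per kilobase, Tgfb3 49.96, Inhba 35.9, Inhbb 33.5, Tgfb2 26.4, Bmp4 19.8, Bmp5 19.4 and Gdf6 16.2. With verapamil, Tgfb1 at 50.8 and Tgfb3 at 39.0 CPM per kilobase were still the highest ligands, and Bmp4 at 20.1, Tgfb2 at 18.8 and Bmp5 at 15.8 came before Inhbb at 13.8 and Inhba at 11.9. Bmp2 was at 8.10 and Bmp6 at 0.528 CPM per kilobase in control, and at 1.74 and 1.20 with verapamil. In control, Bmp4 (19.8 ± 3.05 CPM per kilobase) and Bmp5 (19.4 ± 2.61) lay within each other's SD. The Inhbb mean of 33.5 ± 1.19 lay within the SD of Inhba (35.9 ± 10.6), but the Inhba mean lay outside that of Inhbb.

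**Figure D2:**
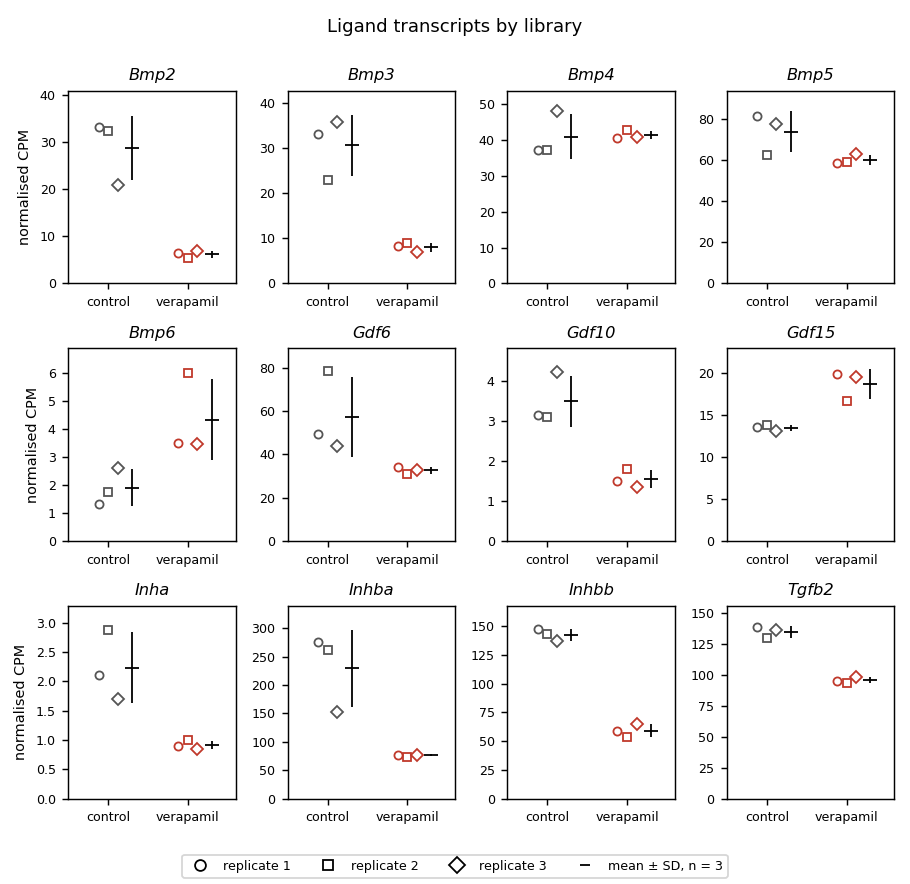
Normalised CPM of 12 ligand genes in each library (open symbols, shape by replicate number) with the group mean and SD (black, n = 3), on axes that start at 0. Bmp2, Bmp3, Inhba and Inhbb are far lower in all 3 verapamil libraries, Bmp4 overlaps, and Bmp6 and Gdf15 are higher.

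Genes that store or release ligands in the matrix fell as well. Latent TGF-β binding proteins tether the latent complex to fibrillin and fibronectin. Ltbp1 was at 243, 306 and 239 CPM in control and 149.7, 151 and 154 CPM with verapamil, which put every verapamil library well under the controls (log2 -0.79 ± 0.09 SE, adjusted p = 0.000852). Ltbp4 fell from 4.93, 4.91 and 5.05 CPM to 1.81, 2.30 and 2.65 CPM (log2 -1.13 ± 0.16 SE, adjusted p = 0.00183), and Ltbp3 from 93.5, 109 and 106 CPM to 74.5, 77.9 and 77.8 CPM (log2 -0.42 ± 0.07 SE, adjusted p = 0.00290). Ltbp2, which does not bind latent TGF-β, was at 95.6 ± 14.9 and 86.8 ± 3.44 CPM with overlapping groups (log2 -0.14, interval -0.34 to 0.06). Bmp1 is no BMP ligand but the protease that trims procollagens and cleaves the BMP antagonist chordin. It had 287, 328 and 285 CPM in control and 201, 192 and 203 CPM with verapamil (log2 -0.59 ± 0.07 SE, adjusted p = 0.000799). All 4 calls held without each library in turn.

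Several BMP antagonist genes were lower as well. Of 10 extracellular modulators tested, 5 fell, 0 rose and 5 did not pass, and in 8 the verapamil values lay wholly below the controls. Among all 13366 tested genes, 16.3% were lower and 15.4% higher, and 3264 had verapamil values wholly below the controls. Nog encodes noggin, which binds several BMPs and keeps them from their receptors. It was at 5.96, 5.02 and 5.88 CPM in control and 2.71, 3.43 and 2.87 CPM with verapamil (log2 -0.90 ± 0.15 SE, adjusted p = 0.00302), a separation seen in every library. Grem1, for gremlin 1, had 123, 157 and 71.8 CPM in control and 60.2, 56.1 and 52.4 CPM with verapamil. Its controls were spread widely in the order of the hypoxia genes, with replicate 3 close to the verapamil libraries (log2 -1.06 ± 0.27 SE, adjusted p = 0.0264). The call of Grem1 was lost with any single library but control replicate 3 left out (adjusted p = 0.0613 to 0.0990) and with genes of low count kept (adjusted p = 0.0752). Its log2 fold change was -0.80 without control replicate 2.

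Fstl3, a follistatin-like inhibitor of activin and myostatin, showed the same order of controls at 43.9, 80.5 and 32.1 CPM, against 17.1, 19.0 and 20.9 CPM with verapamil (log2 -1.45 ± 0.34 SE, adjusted p = 0.0199). Without control replicate 2, the highest control, its log2 fold change was -1.0 (adjusted p = 0.00231). Leaving out the highest control could not make the groups overlap, and the part of that library in the result was not tested. The call of Fstl3 was lost with any verapamil library left out (adjusted p = 0.0517 to 0.0640) and with genes of low count kept (adjusted p = 0.0627). Of its exonic bases, 47.3% overlap Prss57 on the other strand.

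Chrd, for the BMP antagonist chordin, fell from 4.08, 5.45 and 4.68 CPM to 2.50, 2.71 and 3.64 CPM (log2 -0.67 ± 0.19 SE, adjusted p = 0.0256), a call lost when verapamil replicate 1 or 2 was left out (adjusted p = 0.0934 and 0.0948). Twsg1, whose product modulates chordin, fell from 171 ± 7.74 to 138 ± 2.01 CPM (log2 -0.31 ± 0.05 SE, adjusted p = 0.00449). Follistatin, the high-affinity activin trap encoded by Fst, had close values in both groups: Fst was at 242, 221 and 256 CPM in control and 226, 228 and 206 CPM with verapamil. Its groups overlapped, with a log2 difference of -0.12 (interval -0.26 to 0.02, adjusted p = 0.231), and it passed only without control replicate 2 (log2 -0.18, adjusted p = 0.0323) among the alternatives run. Fstl1, the most abundant of all 66 genes at 1435 ± 62.5 and 1306 ± 30.3 CPM, had a log2 difference of -0.14 (adjusted p = 0.190). Bmper (log2 -0.21, adjusted p = 0.149) and Chrdl1 (log2 -0.36, adjusted p = 0.184) did not pass, and Chrdl1 did without control replicate 2 (log2 -0.50, adjusted p = 0.0346).

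**Figure D3:**
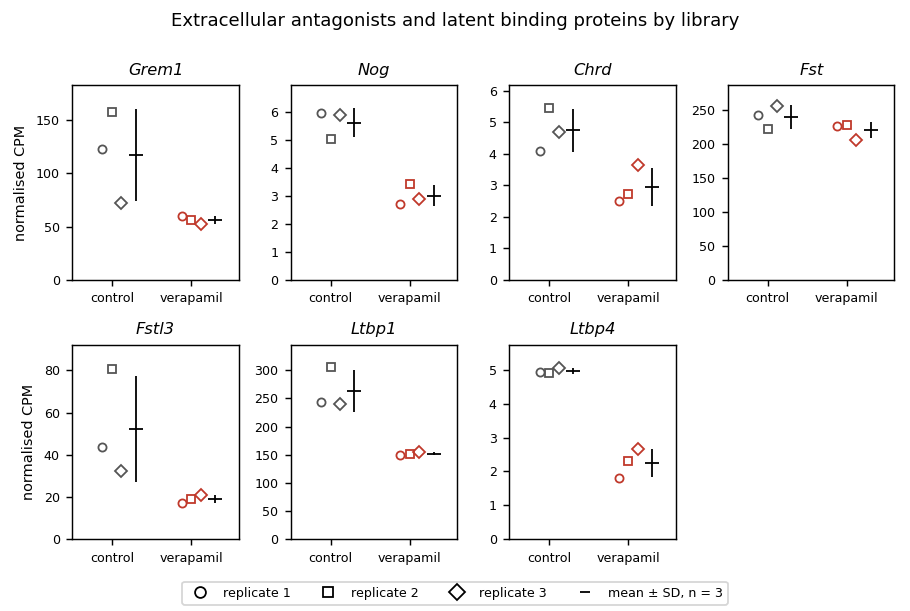
Normalised CPM of 5 antagonists and 2 latent TGF-β binding proteins in each library (open symbols, shape by replicate number) with the group mean and SD (black, n = 3). Control replicate 2 (square) is the highest and control replicate 3 (diamond) the lowest control for Grem1 and Fstl3, while Nog and Ltbp4 are separated by a wide gap and Fst overlaps.

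Receptor transcripts changed little. Acvr1, for the BMP and activin type I receptor ALK2, was the clearest fall, from 82.3, 82.7 and 79.6 CPM to 63.4, 62.9 and 61.7 CPM (log2 -0.38 ± 0.05 SE, adjusted p = 0.00134). Its groups were tight and far apart, and the call held without each library in turn. Bmpr1a, the main BMP type I receptor of osteoblasts, was at 126, 111 and 119.6 CPM against 98.3, 109 and 101 CPM (log2 -0.21 ± 0.07 SE, adjusted p = 0.0412). Acvrl1, the ALK1 receptor of endothelium, was at 34.5, 41.6 and 32.6 CPM against 28.2, 30.2 and 30.1 CPM (log2 -0.29 ± 0.09 SE, adjusted p = 0.0447). These falls were small, with gaps of a few CPM between groups. The call of Bmpr1a was lost with any library but control replicate 2 left out (adjusted p = 0.0530 to 0.154), and that of Acvrl1 with control replicate 1 or any verapamil library left out (adjusted p = 0.0835 to 0.142). With library totals alone they were at adjusted p = 0.224 and 0.0747, and Acvrl1 was at 0.0544 by limma-voom.

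The activin type II receptor gene Acvr2a rose slightly, from 38.8, 38.7 and 40.2 CPM to 44.3, 48.5 and 43.2 CPM (log2 0.21 ± 0.06 SE, adjusted p = 0.0384). The rise did not pass by DESeq2 (adjusted p = 0.0757) or with control replicate 1 or any verapamil library left out (adjusted p = 0.0632 to 0.167). Tgfbr2, the type II receptor that binds TGF-β, was at 314 ± 14.7 and 300.5 ± 7.52 CPM, with a log2 difference of -0.06 and an interval of -0.18 to 0.05. Its partner Tgfbr1 was at 113 ± 13.5 and 122 ± 2.80 CPM (0.11, interval -0.06 to 0.27), and the co-receptor gene Tgfbr3 (betaglycan) at 216 ± 40.4 and 235 ± 10.7 CPM (0.12, interval -0.12 to 0.36). Tgfbr3 passed without control replicate 3 (log2 0.27, adjusted p = 0.0221). Bmpr2 had a log2 difference of -0.25 ± 0.09 SE that did not pass (adjusted p = 0.0683) but did without control replicate 2 (log2 -0.33, adjusted p = 0.00314). Acvr1b (0.04, interval -0.15 to 0.23) and Acvr2b (-0.04, interval -0.48 to 0.41) did not pass. Summed over 13 receptor and co-receptor genes, libraries held 1171, 1050.0 and 1194 CPM in control and 1068, 1126 and 1064 CPM with verapamil, which overlap.

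The SMADs that carry the signal also moved little. Smad4, the partner of all receptor-regulated SMADs, fell from 129 ± 3.19 to 112 ± 3.83 CPM (log2 -0.21 ± 0.05 SE, adjusted p = 0.0192). Smad5, on the BMP branch, had 82.9, 65.5 and 81.2 CPM in control and 62.8, 61.5 and 61.7 CPM with verapamil (log2 -0.30 ± 0.09 SE, adjusted p = 0.0318). Neither was firm: Smad4 missed the threshold when control replicate 1, verapamil replicate 1 or verapamil replicate 3 was left out (adjusted p = 0.0502 to 0.0901), and Smad5 when any library but control replicate 2 was (adjusted p = 0.0564 to 0.118). With library totals alone they were at adjusted p = 0.153 and 0.138. Smad1 (-0.15, interval -0.28 to -0.02), Smad2 (-0.04, interval -0.15 to 0.06), Smad3 (-0.19, interval -0.32 to -0.06) and Smad9 (-0.00, interval -0.18 to 0.17) did not pass the adjusted test. Smad1 did without control replicate 2 (adjusted p = 0.0384). With all libraries its unadjusted p in edgeR was 0.0569, although both ends of its approximate interval were negative.

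Each intracellular inhibitor gene tested among those chosen by symbol fell. Smad7, which blocks TGF-β and BMP receptors, was at 36.3, 42.2 and 34.0 CPM in control and 25.2, 23.6 and 22.9 CPM with verapamil (log2 -0.65 ± 0.09 SE, adjusted p = 0.00161). Smad6, which acts mainly on the BMP branch (chromosome 9, 63953076 to 64022085), had 38.4, 35.8 and 43.7 CPM against 28.4, 29.0 and 28.5 CPM (log2 -0.46 ± 0.08 SE, adjusted p = 0.00432). For both, every verapamil library was below every control. Skil, for the corepressor SnoN that holds SMAD complexes inactive (chromosome 3, 31095058 to 31122923), went from 114, 101 and 83.0 CPM to 53.1, 55.2 and 56.0 CPM. It was 1.81-fold lower (log2 -0.86 ± 0.11 SE, adjusted p = 0.00115), the largest change among the intracellular members.

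The ubiquitin ligases Smurf1 and Smurf2 target SMADs and receptors for degradation. Smurf2 fell from 327, 308 and 280.1 CPM to 205, 212 and 211 CPM (log2 -0.54 ± 0.07 SE, adjusted p = 0.00102). Smurf1 fell from 64.5, 69.6 and 58.8 CPM to 53.0, 49.2 and 54.5 CPM (log2 -0.30 ± 0.08 SE, adjusted p = 0.0188), a call lost when control replicate 1, verapamil replicate 1 or verapamil replicate 2 was left out (adjusted p = 0.0615 to 0.0808). Bambi, for a decoy receptor that lacks the kinase domain, was at 9.20, 10.1 and 9.37 CPM against 7.81, 6.72 and 7.32 CPM (log2 -0.39 ± 0.10 SE, adjusted p = 0.0213). All of these groups were apart, yet the call of Bambi was lost when control replicate 1, verapamil replicate 2 or verapamil replicate 3 was left out (adjusted p = 0.0510 to 0.0908). Smad6, Smad7, Skil and Smurf2 passed without each library in turn.

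Of the 4 ID genes, 1 rose and 3 did not pass. Id2 (chromosome 12, 25093799 to 25096092), at 37.9, 44.6 and 39.2 CPM in control, rose to 61.6, 53.5 and 53.5 CPM with verapamil (log2 0.47 ± 0.09 SE, adjusted p = 0.00491). No verapamil library reached down to a control, and the call held without each library in turn. Id3 was by far the highest ID gene, at 227 and 229.5 CPM per kilobase in control and verapamil libraries, where Id2 had 20.6 and 28.6, Id4 19.4 and 23.9, and Id1 15.9 and 13.5. In CPM, Id3 was at 284, 279 and 308 in control and 299, 284 and 297 with verapamil, which overlapped closely (log2 0.01, interval -0.11 to 0.14). Id1 was at 18.3, 21.3 and 15.8 CPM and 17.0, 14.8 and 15.3 CPM (log2 -0.23 ± 0.12 SE, adjusted p = 0.163). Id4 ranged from 58.4 to 98.3 CPM in control and from 85.0 to 99.5 CPM with verapamil (log2 0.30 ± 0.19 SE, adjusted p = 0.268). Both values turned on control replicate 3: without it, Id1 was lower (log2 -0.34, adjusted p = 0.0306) and Id4 was higher (log2 0.54, adjusted p = 0.00180). Of the promoters printed above, those of Id2, which rose, and Id4, which did not pass, each held GGCGCC. Id3, alike in both groups, held CAGAC on each strand, and Smad6, which fell, held neither. Whether these letters go with the direction of change was not tested.

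Tgfbi encodes a matrix protein induced by TGF-β and also made by macrophages. It was at 100.4, 97.1 and 129.8 CPM in control and 155, 161 and 129 CPM with verapamil, so that verapamil replicate 3 met control replicate 3 (log2 0.44 ± 0.13 SE, adjusted p = 0.0363). Without control replicate 1 or 2 or verapamil replicate 1 or 2 the rise of Tgfbi did not pass (adjusted p = 0.120 to 0.130). Summed macrophage markers stood at 9545 to 11960 CPM in control and 17040 to 19170 CPM with verapamil in the same libraries. Of these sums, Lyz2 alone held 4358 to 6326 CPM and 10331 to 12096 CPM. Of the 16 markers, 11 were higher, 1 was lower and 4 did not pass. The part of macrophage markers in the rises of Tgfbi, Id2, Bmp6 and Gdf3 was not tested.

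**Figure D4:**
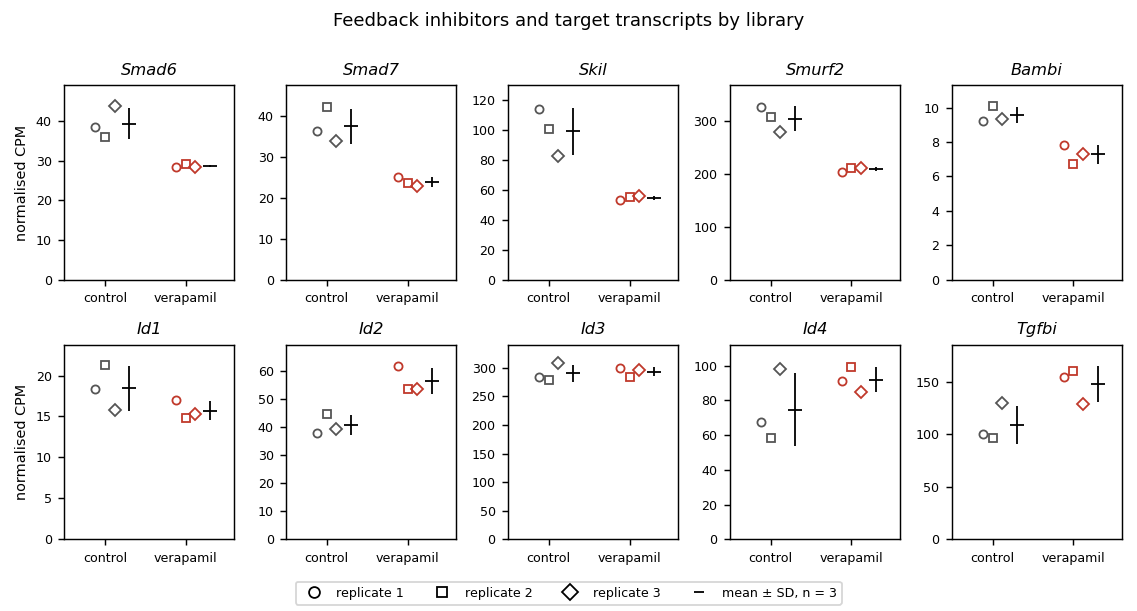
Normalised CPM of 5 inhibitors (Bambi among them) and 5 target genes in each library (open symbols, shape by replicate number) with the group mean and SD (black, n = 3). Smad6, Smad7, Skil and Smurf2 are lower in every verapamil library, Id2 is higher, and Id1, Id3, Id4 and Tgfbi overlap.

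Pathway genes outside the symbol rule were read from lists of extracellular and intracellular components. Of 53 tested, 26 fell, 4 rose and 23 did not pass, with a median log2 fold change of -0.25. That is 49.1% lower and 7.55% higher, against 16.3% and 15.4% of all tested genes. Among extracellular components, Bmp8a, another BMP ligand, fell from 29.6 ± 1.76 to 13.9 ± 1.96 CPM (log2 -1.09 ± 0.11 SE, adjusted p = 0.000440). Thbs1, for the TGF-β activator thrombospondin 1, fell from 7700 ± 1143 to 3887 ± 102 CPM (log2 -0.99 ± 0.12 SE, adjusted p = 0.000985), and Fbn2, for fibrillin 2, from 22 ± 4.94 to 10.2 ± 1.28 CPM (log2 -1.10). Itgb8, a subunit of a TGF-β-activating integrin, fell by 0.80, a call lost with control replicate 1 or any verapamil library left out (adjusted p = 0.0562 to 0.0749). Of intracellular components, Pmepa1, a TGF-β-induced inhibitor of SMAD signalling, fell by 0.83 and the BMP signal inhibitor Tob1 by 0.58, from 243 ± 49.7 to 136 ± 6.47 CPM and from 42.8 ± 3.67 to 28.6 ± 1.12 CPM. The ubiquitin ligase Wwp2 fell by 0.38. Its relative Wwp1 rose by 0.56 (adjusted p = 0.0319), a call lost with control replicate 1 or any verapamil library left out (adjusted p = 0.0753 to 0.103) and with genes of low count kept (adjusted p = 0.0515). The 4 that rose became 0 without verapamil replicate 1 or 2, 1 without control replicate 1 or verapamil replicate 3, and 7 without control replicate 3, and the 26 that fell became 16 without verapamil replicate 1.

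Targets of each branch, again outside the rule, showed more falls than rises, where 16.3% of all tested genes were lower and 15.4% higher. Of 15 TGF-β targets, 11 fell, 1 rose and 3 did not pass, with a median log2 fold change of -0.80. Their summed level was 41770, 53510 and 37320 CPM in control replicates 1, 2 and 3, the order of the hypoxia genes, and 19070 to 21360 CPM with verapamil. The part of that order in the result was not tested, and without control replicate 2 the number that fell was 12. Ccn2, for connective tissue growth factor, fell from 1079 ± 396 to 435 ± 33.2 CPM (log2 -1.31 ± 0.26 SE, adjusted p = 0.0107). The collagen gene Col1a1 fell by 1.66 and the lysyl oxidase gene Lox by 1.29. The 1 that rose, Cdkn2b, a cell cycle inhibitor named after its value was seen, had a log2 difference of 0.24, and the count of rises was 0 with control replicate 1, verapamil replicate 1 or verapamil replicate 3 left out. Of 14 BMP targets, 7 fell, 0 rose and 7 did not pass, with a median of -0.56 (0 were higher at an unadjusted p under 0.05 in edgeR, and 0 by DESeq2 or limma-voom). The Wnt effector gene Tcf7 fell from 6.91 ± 1.56 to 2.22 ± 0.212 CPM (log2 -1.64 ± 0.19 SE), and Sp7, needed for osteoblast formation, fell by 1.08. Tnfrsf11b, for the RANKL decoy osteoprotegerin, fell by 0.95. Dlx2 fell by 0.97, a call lost with control replicate 1 or any verapamil library left out (adjusted p = 0.0529 to 0.109). The BMP targets Msx1 (0.06), Msx2 (0.38), Hey1 (0.37), Atoh8 (-0.01), Dlx5 (-0.09), Hes1 (-0.10) and Gata2 (-0.76), named after their values were seen, did not pass. Gata2 was close to the threshold (adjusted p = 0.0505), with every verapamil library below every control. Col1a1, Sp7, Runx2 and Dlx5 also stand on the osteoblast marker list, and Pmepa1 and Tgif1 on 2 of these lists.

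The 60 tested genes varied more among the controls than among the verapamil libraries, with median coefficients of variation of 11.0% and 5.00%, against 9.11% and 5.10% for all tested genes. Of the 31 that fell, 13 were highest in control replicate 2, and 10 had the controls in the order of the hypoxia genes (replicate 2 above 1 above 3). Of the 60 tested genes, 21 were highest in control replicate 2 among the controls. The same shares were not counted over all tested genes, so no link to the hypoxia genes can be read from these counts. Without control replicate 2, 34 genes fell and 4 rose, and 30 of the 31 were among those that fell. In all, 21 of the 37 genes past the test passed without each library in turn.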

How the data were processed

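The data are 6 RNA-seq libraries, 3 per group, in 1 table of estimated counts per gene and library, which the authors deposited under the file header of read count. Values were not scaled to depth, and 67.7% were not whole numbers. The submitters' processing notes name GRCm38 (mm10), while the aligner, counting tool, annotation and strandedness were not given in the sources used here. Counts were rounded, filtered with filterByExpr (minimum count 10, minimum total 15, leaving 13366 of 17491 genes) and scaled by TMM. Verapamil was compared with control by edgeR 4.0.16 (quasi-likelihood, robust) in R 4.3.3 over all tested genes, with Benjamini-Hochberg adjustment and calls at an adjusted p under 0.05. CPM are normalised by TMM, and 1 count was 0.0449 to 0.0534 CPM. Each SE was derived as |log2 fold change| divided by sqrt(F). Intervals of 1.96 SE to each side are narrower than the quasi-likelihood test implies, as the values of Smad1 show. Alternatives used DESeq2 1.42.0, limma 3.58.1, other scalings and filters, a replicate block and each library left out.

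On simulated counts for this comparison (13366 genes, 5 draws, 200 genes changed in each) recovery was 66.2% for a 1.5-fold change and 86.4% for a 2-fold change, with 10.7% false calls. That share of false calls is above what an adjusted p under 0.05 is meant to hold. In the data 4234 genes were called, far more than were changed in a draw. The draws also held no spread shared between genes, such as that of the hypoxia genes, so these rates may not carry over. Libraries of a group were not duplicates of each other (chi-square per degree of freedom of 3.57 to 49.9). Coordinates came from the RefSeq table and transcript lengths from GENCODE M21, each on GRCm38. The members and lists were chosen with earlier results of these data known. Members past the test with a mean of at least 1 CPM were named, with every library's value for up to 3 per role, as were up to 4 genes per list outside the rule. Values per library beyond that were chosen after they were seen. Lists covered pathway components and targets, markers of osteoblasts, osteocytes, chondrocytes, adipocytes, macrophages, osteoclasts, neutrophils, endothelial cells and lymphocytes, and the hypoxia response. Results for some genes are not reported here.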

Additional observations from a re-analysis of the deposited data

How the results depend on the processing

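No gene among the 37 called changed sign in any alternative run, and 21 of them passed in each one that gave a value; 36 passed by DESeq2. Counts of members that rose and fell were 6 and 31, at most 8 and 34 and at least 2 and 20 over left-out libraries, and 2 and 19 at an adjusted p under 0.01. At that threshold, 901 genes of all tested were higher and 1064 lower, pathway genes outside the rule numbered 0 higher and 16 lower, and TGF-β targets 0 higher and 7 lower. Over left-out libraries, all tested genes ranged from 1008 to 2451 higher and 1222 to 2589 lower, pathway genes from 0 to 7 higher and 16 to 29 lower, TGF-β targets from 0 to 1 higher and 9 to 13 lower, and BMP targets from 5 to 7 lower. Library totals alone moved the share of all calls that were higher from 48.5% to 63.7%, and the median of all genes from 0.01 to 0.09, while 6 members rose and 26 fell. Equal replicate numbers showed no sign of pairing in the values. Deviations from the group mean of control and verapamil libraries of the same number correlated at 0.00892, -0.167 and -0.127. No library correlated best with its own number. With 3 libraries per group, these correlations cannot exclude a shared animal or batch. With a replicate block, 1364 genes of all tested, 4 members and 1 pathway gene were higher, and 24 members were lower.

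Sign changes were limited to 9 genes, none of them past the test. With library totals alone the log2 fold change was 0.039 for Acvr2b, 0.047 for Gdf11, 0.036 for Smad2, 0.074 for Smad9 and 0.015 for Tgfbr2. Gdf11 was at 0.0012 by limma-voom and 0.0057 with a replicate block. Over left-out libraries the values ran from -0.030 to 0.12 for Acvr1b, from -0.25 to 0.13 for Acvr2b, from -0.049 to 0.15 for Bmp4, from -0.22 to 0.15 for Gdf11, from -0.017 to 0.056 for Id3, from -0.031 to 0.024 for Smad9 and from -0.0010 to 0.27 for Tgfbr3. Genes under about 1 CPM rest on few reads, so Gdf1, Gdf9 and the 6 untested genes could not be resolved at this depth.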
